A study of Mus musculus with 7 samples.

Results

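Flt1 and Plat are a pair of genes that endothelial cells express and that moved in opposite directions between T-cells of ORP4L knock-in (ORP4L KI) mice and of wild-type (WT) littermates. The question was whether either gene follows other endothelial genes. The group described here had 9 genes of the 25033 listed in each library. Flt1 and Plat were chosen by the fall of one and the rise of the other in this same contrast, so their values are given as a description and no test is applied to them. The other 7, Kdr, Pecam1, Cdh5, Tek, Tie1, Eng and Emcn, were taken for their known role in endothelial cells, with earlier results of these data known.

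The data were 7 whole transcriptome RNA sequencing libraries of T-cells, with 4 ORP4L KI mice and 3 WT littermates, and gave the number of reads of every gene. Both groups were C57BL/6J mice of 15 months, and by the methods the ORP4L KI mice were moribund, so that genotype and illness cannot be told apart. ORP4L KI mice carry a human ORP4L coding sequence with a 3x Flag tag, followed by IRES-EGFP, in the Rosa26 locus behind a CAG promoter and a loxP-flanked stop. The stop is removed by a Cre transgene under the Lck promoter, which is active in the T-cell lineage, so that other cells of the same mouse were not designed to express the insert. The T-cells were isolated from blood mononuclear cells or from spleen, and the source of a given library is not given in the sources used here. The methods also describe a selection of CD4+ cells with a naive CD4+ T-cell kit, which is made to remove other blood cells, followed by culture. They do not say whether the cells sequenced had gone through either step. Nothing states that a library was pooled from several mice.

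Osbp2, the mouse gene for ORP4L, checked the labels, with 0, 0 and 1 reads in WT replicates 1 to 3 and 188, 742, 155 and 443 reads in ORP4L KI replicates 1 to 4. Reads were mapped to a mouse mRNA reference, so reads of the human insert that were counted under Osbp2 and reads of mouse Osbp2 itself cannot be told apart. The libraries held between 12918187 and 19665679 reads. The 10 T-cell markers together made up 0.214% to 0.331% of the reads in WT and 0.121% to 0.433% in ORP4L KI, and 0 of them was called changed by the rule given below, with 0 at an unadjusted p under 0.05 in edgeR's quasi-likelihood test and 0 at an adjusted p under 0.05 in the 3 other tests run. The 14 granulocyte markers made up 0.186% to 0.53% of the reads in WT and 1.12% to 12.2% in ORP4L KI, higher in every ORP4L KI library. The libraries of both groups contained both sexes by their X- and Y-linked transcripts. X-linked Xist had 6000, 250 and 265 reads in WT replicates 1 to 3 and 6431, 11877, 384 and 359 in ORP4L KI replicates 1 to 4. Y-linked Ddx3y had 9, 2087 and 2961 reads in WT and 55, 52, 2131 and 1942 in ORP4L KI, in the same order. The fits held no term for sex.

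Endothelial cells line blood vessels and sinusoids, including those of the spleen. Kdr (VEGFR2) is the main signalling receptor for VEGF-A, while Flt1 (VEGFR1) binds VEGF-A, VEGF-B and placental growth factor, signals weakly in endothelium, acts there largely as a decoy, and is also found on monocytes and macrophages. Tek (Tie2) is the receptor for angiopoietins and Tie1 its orphan partner, Eng (endoglin) is a co-receptor of the TGF-beta family, and Pecam1, Cdh5 (VE-cadherin) and Emcn (endomucin) are surface and junction proteins. Plat, tissue plasminogen activator, is secreted by endothelium and cleaves plasminogen to plasmin on fibrin. Pecam1 is not particular to endothelium and is carried by many leukocytes and platelets.

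Flt1 lies on chr5:147561604-147726438 and Kdr on the same chromosome at chr5:75932827-75979072. Plat lies on chr8:22757722-22782848, Cdh5 on chr8:104101613-104144504, Pecam1 on chr11:106654213-106715281 and Eng on chr2:32646595-32682669. Tek lies on chr4:94739086-94874976, Tie1 on chr4:118471191-118489849 and Emcn on chr3:137341062-137431069. Positions are of the RefSeq genes on GRCm38.p6 (mm10). Flt1 has 2 RefSeq transcripts merged in the deposited count, so its soluble and membrane forms were not separated.

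Promoter sequences from RefSeq on the same build matched 6 of the 9 genes, and those of Plat, Pecam1 and Cdh5 were not matched. Flt1 and Kdr are shown as the receptors that share VEGF-A, and Tie1 as a receptor of the angiopoietin system. Each is the 250 bases before the start site of the promoter table, which for Tie1 is the 5′ end of the gene span above and for Flt1 and Kdr lies inside that span, 5′ to 3′ on the strand of the gene, with GGAA or its reverse complement TTCC, the core letters bound by ETS factors, in capitals.
Flt1, chr5:147726012-147726261, minus strand: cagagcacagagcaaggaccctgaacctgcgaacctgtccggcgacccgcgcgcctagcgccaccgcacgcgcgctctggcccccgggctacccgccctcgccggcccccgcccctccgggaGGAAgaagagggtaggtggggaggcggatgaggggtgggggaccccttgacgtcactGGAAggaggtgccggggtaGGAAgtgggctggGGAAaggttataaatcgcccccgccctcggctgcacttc
Kdr, chr5:75978456-75978705, minus strand: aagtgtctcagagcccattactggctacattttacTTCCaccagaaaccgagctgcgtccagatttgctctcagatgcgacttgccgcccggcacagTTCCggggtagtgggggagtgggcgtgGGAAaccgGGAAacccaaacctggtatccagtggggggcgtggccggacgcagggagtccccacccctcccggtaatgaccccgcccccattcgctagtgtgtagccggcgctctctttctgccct
Tie1, chr4:118489850-118490099, minus strand: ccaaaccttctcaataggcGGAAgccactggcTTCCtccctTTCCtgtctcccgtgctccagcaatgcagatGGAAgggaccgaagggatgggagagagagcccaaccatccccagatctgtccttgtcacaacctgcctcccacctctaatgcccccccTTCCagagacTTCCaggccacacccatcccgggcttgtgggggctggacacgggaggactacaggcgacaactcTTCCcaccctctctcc
Counted on both strands, the letters occurred 4 times in Flt1, 4 times in Kdr and 7 times in Tie1, against a median of 3 over 32851 promoters of that length, of which 93.4% held at least 1. The GC box GGGCGG occurred 3 times in Flt1, 2 times in Kdr and 0 times in Tie1, and 32.7% of all promoters held it. TATAAA occurred 1 time in Flt1 and in neither of the other two, and 12.4% of all promoters held it. Among the matched promoters not shown, GGAA or TTCC occurred 2 times in Tek, 3 times in Eng and 4 times in Emcn. In these, GGGCGG and TATAAA occurred 0 times. A match describes the letters only.

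Flt1 was lower in every ORP4L KI library than in any WT library. Its level, in CPM (read counts per M reads, after TMM scaling of the library sizes), was 5.96, 6.98 and 7.09 in WT replicates 1 to 3, from 96, 111 and 101 reads. It was 2.19, 2.68, 5.11 and 2.55 CPM in ORP4L KI replicates 1 to 4, from 36, 49, 89 and 41 reads. The WT libraries lay close together, whereas ORP4L KI replicate 3 lay far above the other ORP4L KI libraries and nearer to WT. The means were 6.68 ± 0.623 CPM in WT (SD, n = 3) and 3.13 ± 1.33 CPM in ORP4L KI (SD, n = 4), 2.13-fold lower, and the fitted log2 fold change was -1.09. Among all 13462 genes tested, 7.38% had every ORP4L KI library below every WT library, and since Flt1 was chosen on this contrast nothing is read from its place among them.

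Plat moved the other way. It had 1.61, 1.95 and 1.12 CPM in WT replicates 1 to 3, from 26, 31 and 16 reads. In ORP4L KI replicates 1 to 4 it had 1.95, 4.0, 5.34 and 9.52 CPM, from 32, 73, 93 and 153 reads. ORP4L KI replicate 1 lay within the WT range and the other 3 lay above it, with replicate 4 highest. The means were 1.56 ± 0.415 CPM in WT and 5.20 ± 3.20 CPM in ORP4L KI, 3.33-fold higher, with a log2 fold change of 1.73. The library in which Plat was highest was therefore not replicate 3, in which Flt1 was highest among the ORP4L KI libraries.

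Of the other 7 genes, 6 passed the filter on low counts and all 6 had a log2 fold change below 0, with a median of -0.66, where the median over all genes tested was 0.013 and 48.5% of them were below 0. The call asked of edgeR's quasi-likelihood test a p under 0.01 before adjustment together with a log2 fold change beyond -1 or 1. By that rule 1 of the 6, Cdh5, was called lower, and 4 of the 6 had an unadjusted p under 0.05, as had 13.7% of all genes. Over all genes 4.68% were called, 2.38% higher and 2.3% lower. At a Benjamini-Hochberg adjusted p under 0.05, 0.0223% of all genes (3 of 13462) and 0 of the 6 passed. DESeq2's Wald test and edgeR's exact and likelihood ratio tests each passed 1 of the 6 at that threshold, Cdh5, and passed 5.83%, 5.07% and 5.24% of all genes. The groups did not overlap for 1 of the 6, against 13.8% of all genes. In a bulk sample, fewer endothelial cells and less RNA of these genes per cell cannot be told apart.

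**Figure D1:**
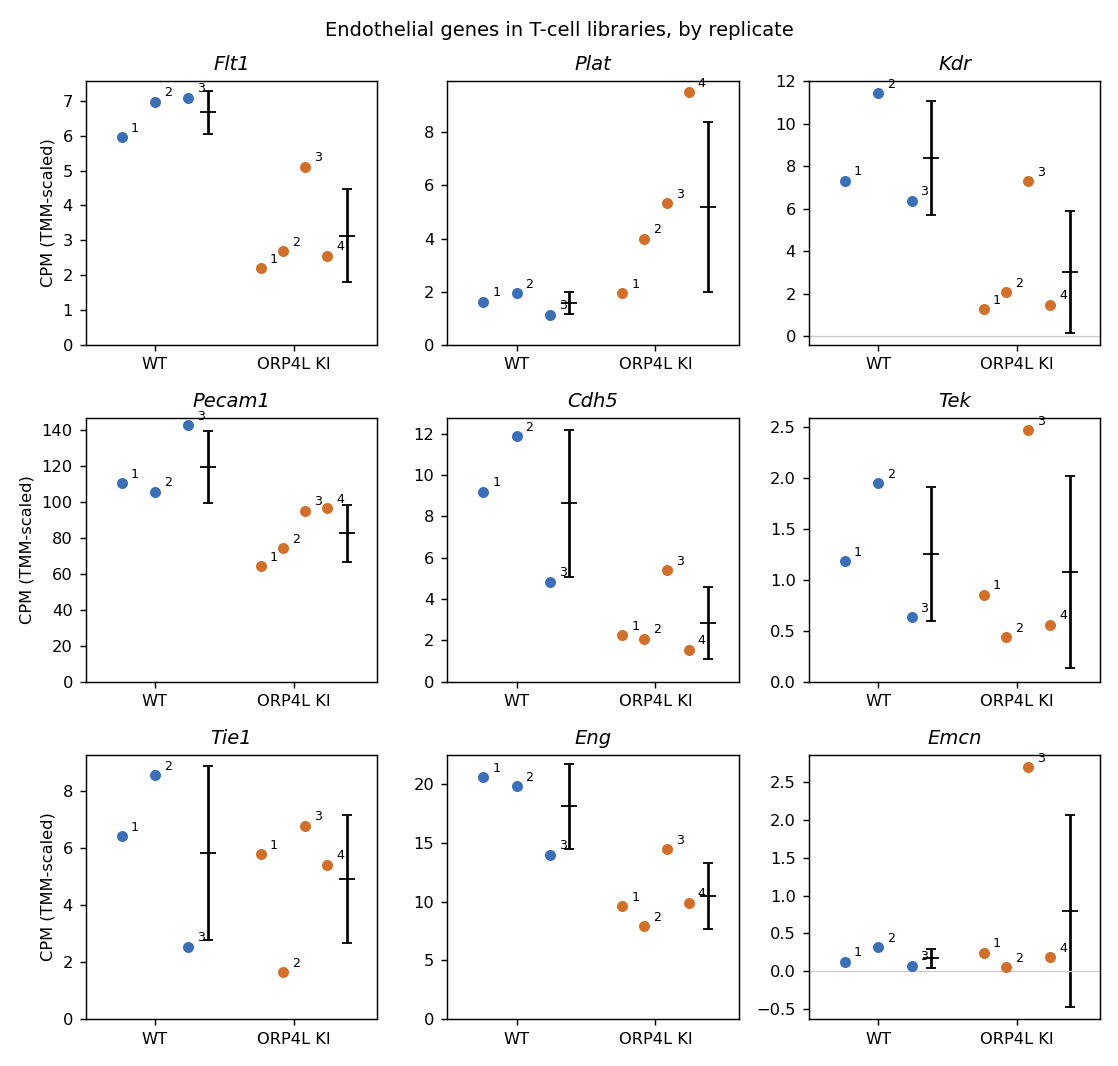
Level of each of the 9 genes in every library, in TMM-scaled CPM on a linear axis. Points are libraries numbered by replicate, blue for WT and orange for ORP4L KI, and the black mark beside each group is its mean with the SD (n = 3 and n = 4). Flt1 and Pecam1 have all ORP4L KI points below all WT points, Plat has 3 of 4 above, and replicate 3 is the highest ORP4L KI point for 7 of the 9 genes.

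Cdh5, the cadherin of endothelial adherens junctions, fell. It had 9.19, 11.9 and 4.85 CPM in WT and 2.25, 2.08, 5.4 and 1.56 CPM in ORP4L KI, in the order of the replicates. ORP4L KI replicates 1, 2 and 4 lay below every WT library, and replicate 3 lay above WT replicate 3. The means of 8.64 ± 3.55 and 2.82 ± 1.74 CPM corresponded to a log2 fold change of -1.61 ± 0.47 (SE, edgeR adjusted p = 0.154). The call was kept under 11 of 17 processing alternatives, whose adjusted p ranged from 0.026 to 0.504.

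Kdr, which shares the ligand VEGF-A with Flt1, did not pass the call. Its level was 7.33, 11.4 and 6.39 CPM in WT replicates 1 to 3, and 1.28, 2.08, 7.29 and 1.49 CPM in ORP4L KI replicates 1 to 4. As with Cdh5, replicates 1, 2 and 4 were below all WT libraries and replicate 3 was inside their range. The log2 fold change was -1.46 ± 0.58 (SE, edgeR adjusted p = 0.303), and the adjusted p ranged from 0.0613 to 0.664 over all 17 alternatives. Without ORP4L KI replicate 3 the log2 fold change was -2.37 with an adjusted p of 0.0613 by edgeR, past the call. Leaving out the highest ORP4L KI library lowers the mean of that group, so nothing is read from this gain. Without WT replicate 2 the log2 fold change was -1.17 (edgeR adjusted p = 0.664). Which of the values of replicate 3 and the other 3 libraries is usual for ORP4L KI T-cells was not tested. Flt1, Kdr and the lymphatic receptor Flt4 are paralogs, and how reads shared by several genes were counted is not given in the sources used here.

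Eng had 20.6, 19.8 and 14.0 CPM in WT and 9.62, 7.89, 14.5 and 9.89 CPM in ORP4L KI. Again only replicate 3 of ORP4L KI reached the WT range, by passing WT replicate 3. The log2 fold change of -0.79 ± 0.26 (SE) did not pass the call (edgeR adjusted p = 0.206). Pecam1, the most abundant of the group, had 110, 106 and 143 CPM in WT and 64.0, 74.3, 95.1 and 96.4 CPM in ORP4L KI. Its groups did not overlap, with a log2 fold change of -0.54 ± 0.21 (SE) that was under the size the call asks for (edgeR adjusted p = 0.304).

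Tek and Tie1, the receptors of the angiopoietin system, did not pass the call either. Tek had 19, 31 and 9 reads in WT and 14, 8, 43 and 9 reads in ORP4L KI, and its log2 fold change was -0.22 ± 0.65 (SE, edgeR adjusted p = 0.931). Tie1 had 6.40, 8.55 and 2.53 CPM in WT and 5.78, 1.64, 6.78 and 5.41 CPM in ORP4L KI, with a log2 fold change of -0.25 ± 0.52 (SE, edgeR adjusted p = 0.896). For both the ranges of the groups overlapped, and both directions turned when WT replicate 2 was left out, to 0.25 for Tek and 0.13 for Tie1, or when ORP4L KI replicate 2 was, to 0.036 and 0.031. Emcn, a sialomucin of venous and capillary endothelium, had 2, 5 and 1 reads in WT and 4, 1, 47 and 3 reads in ORP4L KI. It was below the filter and was not tested. Nearly all of its ORP4L KI reads came from replicate 3.

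Levels can be compared between genes per length, in the deposited RPKM, which are not scaled by TMM. In WT, Pecam1 was at 42.0 ± 8.80 RPKM (SD) and Eng at 5.36 ± 0.979 RPKM. Cdh5 (2.27 ± 0.841 RPKM), Kdr (2.19 ± 0.577 RPKM) and Tie1 (1.57 ± 0.765 RPKM) followed, and neighbours among these 3 differed by less than the larger SD of the pair. Flt1 (1.03 ± 0.0998 RPKM) was also within the SD of Tie1. Plat (0.643 ± 0.143 RPKM), Tek (0.278 ± 0.133 RPKM) and Emcn (0.123 ± 0.0868 RPKM) were the lowest, each step being above the SDs of its pair. In ORP4L KI the order changed mainly for Plat, which at 1.96 ± 1.15 RPKM was next after Pecam1 (26.2 ± 6.01 RPKM) and Eng (2.81 ± 0.827 RPKM), within its SD of Eng. Flt1 stood at 0.442 ± 0.208 RPKM in ORP4L KI, with Tie1 (1.18 ± 0.530 RPKM), Kdr (0.744 ± 0.719 RPKM), Cdh5 (0.687 ± 0.449 RPKM) and Emcn (0.549 ± 0.895 RPKM) above it and Tek (0.221 ± 0.202 RPKM) below it. From Eng down to Flt1, every step of that order was smaller than the larger SD of its pair.

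The levels of the 7 genes were added to give 1 value per library. The sum was 155, 159 and 171 CPM in WT and 84.1, 88.5, 134 and 115 CPM in ORP4L KI, and the groups did not overlap. The means were 162 ± 8.11 and 106 ± 23.6 CPM, 1.53-fold lower in ORP4L KI. Pecam1 made up most of this sum. Without it the sum was 44.8, 54.0 and 28.4 CPM in WT and 20.03, 14.2, 39.1 and 19.1 CPM in ORP4L KI, and replicate 3 of ORP4L KI lay inside the WT range.

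Divided by the endothelial sum without Pecam1, Flt1 lay within the WT range in 3 of the 4 ORP4L KI libraries and below it in replicate 1. The ratio was 0.129 to 0.249 in WT, and in ORP4L KI replicates 1 to 4 it was 0.109, 0.189, 0.131 and 0.134. Per Kdr, Flt1 was at 0.610 to 1.11 in WT and at 1.71, 1.29, 0.701 and 1.71 in ORP4L KI, so that it was lowered less than Kdr in replicates 1, 2 and 4. Plat lay above the WT range by either measure in all 4. Its ratio to the same sum was 0.036 to 0.0395 in WT and 0.0973, 0.282, 0.137 and 0.498 in ORP4L KI, and its ratio to Kdr was 0.170 to 0.220 in WT and 0.732 to 6.38 in ORP4L KI. The groups did not overlap in either Plat ratio. Because Flt1 and Plat were chosen on this contrast, these ratios are a description.

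**Figure D2:**
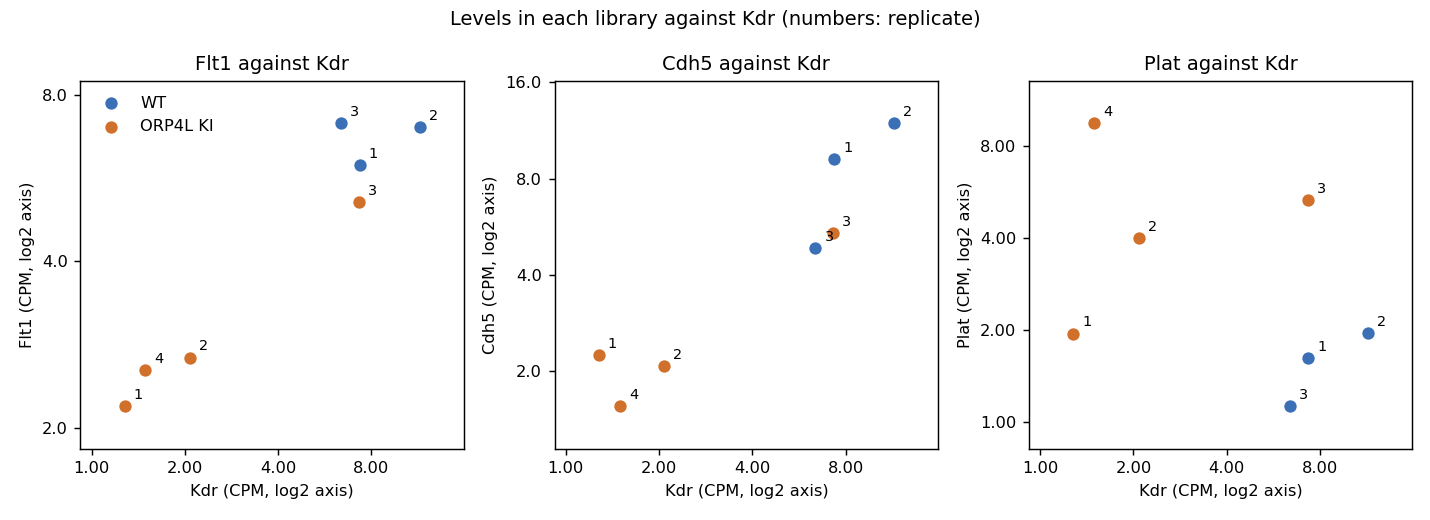
Level of Flt1, Cdh5 and Plat against that of Kdr, in TMM-scaled CPM on log2 axes, with 1 numbered point per library (blue WT, orange ORP4L KI). Flt1 and Cdh5 are low where Kdr is low, in ORP4L KI replicates 1, 2 and 4, and ORP4L KI replicate 3 lies beside the WT points, while Plat is higher in ORP4L KI replicate 4 (9.52 CPM) than in any library with a high Kdr.

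The variation between libraries of 1 genotype, which the choice of Flt1 and Plat did not use directly, was compared by the correlation of log2 CPM after each group's mean was subtracted, over 7 libraries. Ranks and the most similar genes were taken among the 10215 genes of at least 5 CPM on average, and the endothelial genes and lists are given whatever their level. With so few libraries, which also differ in depth and in cell content, these values are descriptive. Among the endothelial genes Kdr had the highest value with Flt1 (r = 0.94, rank 7 of 10215). Next came Tek (r = 0.68), Cdh5 (r = 0.68), Eng (r = 0.60) and Pecam1 (r = 0.56), and then Plat (r = 0.29) and Tie1 (r = 0.18). Most of these values rested on ORP4L KI replicate 3. Without it, r with Flt1 was 0.52 for Kdr, 0.54 for Pecam1 and 0.41 for Plat, and it was negative for Cdh5 (-0.33), Tek (-0.44), Tie1 (-0.56) and Eng (-0.60). Without replicate 3 the sign of r thus differed between the endothelial genes, and with so few libraries no relation is read from it. The genes most like Flt1 were Zfand1 (r = 0.99), Gpr141b (r = 0.97), H2-Eb2 (r = 0.96), Soga1 (r = 0.96) and Clic4 (r = 0.94), and 21 genes had an r above 0.9. The other endothelial markers had a median r of 0.58 with Flt1, megakaryocyte markers 0.53, monocyte and macrophage markers -0.18 and granulocyte markers -0.37. The 12 monocyte and macrophage markers, of cells that can also carry Flt1, summed to 3149 to 5536 CPM in WT and 2330 to 8194 CPM in ORP4L KI. Of the 12, 9 had a log2 fold change below 0 (48.5% of all genes) and the median was -0.78. By the rule 1 was called higher and 2 lower, where 2.38% and 2.3% of all genes were. Every ORP4L KI library lay below every WT library for 4 of the 12 and above for 1, against 7.38% and 6.43% of all genes. The part of such cells in the Flt1 values was not tested.

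With Plat, Pecam1 came first (r = 0.56, rank 1466), followed by Eng (r = 0.35), Kdr (r = 0.30), Tie1 (r = 0.27), Tek (r = 0.14) and Cdh5 (r = 0.10). These also turned on single libraries, since r of Plat with Kdr was -0.14 without ORP4L KI replicate 1 and 0.87 without ORP4L KI replicate 4, and with Cdh5 it was -0.082 without WT replicate 3 and 0.75 without ORP4L KI replicate 4. The most similar genes were Pmm2 (r = 0.996), Hspa2, Nop53, Prr3 and Tbc1d10a (r = 0.99 each), and 167 genes had an r above 0.9. The median r with Plat was 0.036 over the other endothelial markers, 0.61 over megakaryocyte markers and 0.63 over T-cell markers. Over the tested genes of the plasminogen system it was -0.0027. T-cell markers summed to 2137 to 3006 CPM in WT and to 1449, 3974, 2833 and 3206 CPM in ORP4L KI replicates 1 to 4. Among the ORP4L KI libraries their sum was lowest in replicate 1, as was Plat, and its relation to Plat was not tested. Megakaryocyte markers, whose 11 genes were all detected and of which 0 was called (1 at an unadjusted p under 0.05), summed to 284 to 326 CPM in WT and to 238, 151, 465 and 509 CPM in ORP4L KI replicates 1 to 4. They were thus high in the 2 libraries with the most Plat, replicates 3 and 4. These were also the ORP4L KI libraries with many reads of Y-linked Ddx3y. Whether Plat reads came from such cells, or differed by sex, was not tested.

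A list of 22 further endothelial markers had mostly negative changes. Of these, 20 passed the filter, 17 had a log2 fold change below 0 and the median was -1.04. The rule called 2 lower and 2 higher, where 2.3% of all genes were called lower and 2.38% higher. Of the 20, 8 had an unadjusted p under 0.05 (13.7% of all genes), and 0 passed an adjusted p under 0.05 by edgeR's quasi-likelihood test. At that adjusted threshold 2 passed in DESeq2's Wald test, 3 with the exact test of edgeR and 4 with its likelihood ratio test. Stab2, a scavenger receptor of sinusoidal endothelium, was at 17.3, 25.0 and 13.3 CPM in WT and at 3.65, 3.34, 10.3 and 1.49 CPM in ORP4L KI, with a log2 fold change of -1.97 ± 0.54 (SE, edgeR adjusted p = 0.14). Nos3, the endothelial nitric oxide synthase, averaged 1.91 ± 0.36 CPM in WT and 0.795 ± 0.199 CPM in ORP4L KI, with a log2 fold change of -1.26 ± 0.37 (SE, edgeR adjusted p = 0.16). For both every ORP4L KI library lay below every WT library, and the highest ORP4L KI value was in replicate 3. That order held for 3 of the 20 markers, Ptprb being the other, against 7.38% of all genes.

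The 2 genes called higher in this list were Selp and Lyve1. Sele, named after its value was seen, also had a positive log2 fold change, of 0.26 ± 0.48 (SE, edgeR adjusted p = 0.882), and did not pass the call. Selp (P-selectin), stored in endothelial cells and platelets, was at 2.98, 4.78 and 4.42 CPM in WT and at 13.9, 6.85, 8.10 and 14.3 CPM in ORP4L KI, with a log2 fold change of 1.41 ± 0.35 (SE, edgeR adjusted p = 0.111). Lyve1, a hyaluronan receptor of lymphatic endothelium and some macrophages, was at 4, 1 and 4 reads in WT and 26, 7, 12 and 21 reads in ORP4L KI, with a log2 fold change of 2.29 ± 0.70 (SE, edgeR adjusted p = 0.172). All ORP4L KI libraries were above all WT libraries for both, and for no other of the 20, against 6.43% of all genes. Among the most abundant markers, Vwf (von Willebrand factor, also in platelets) had a log2 fold change of -0.33 ± 0.44 (SE, edgeR adjusted p = 0.833) and Icam2, an adhesion molecule also on leukocytes, one of -0.32 ± 0.22 (SE, edgeR adjusted p = 0.612), neither past the call.

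**Figure D3:**
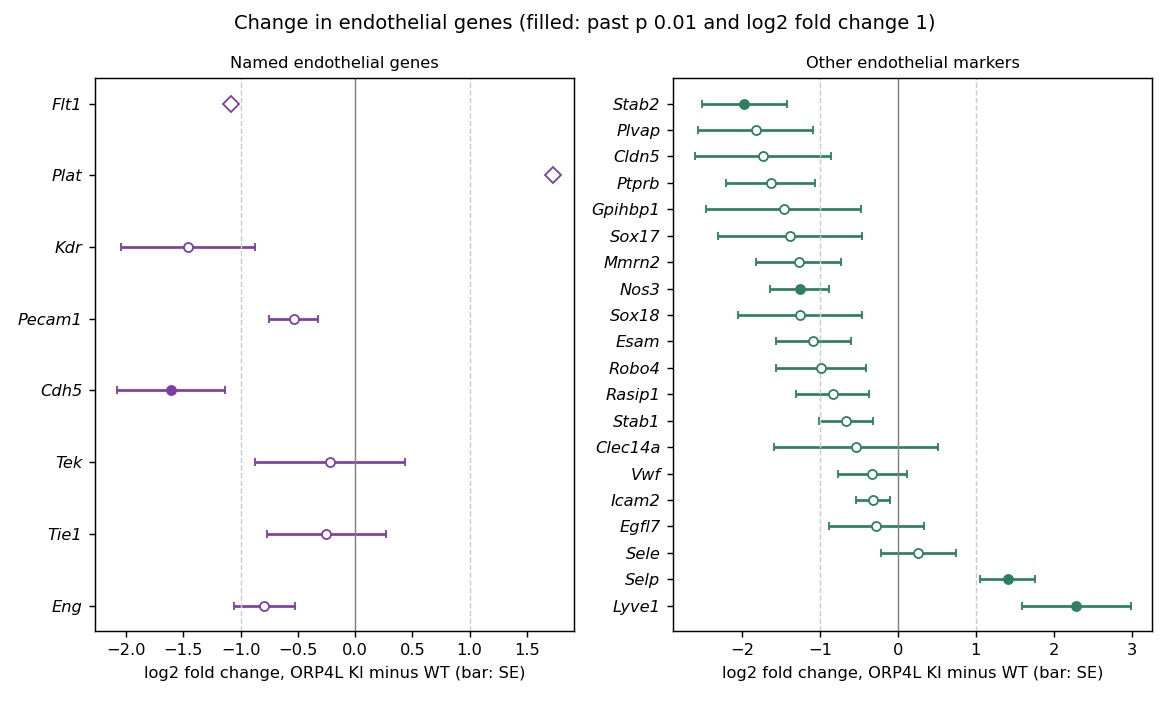
Log2 fold change, ORP4L KI minus WT, of the tested endothelial genes named above (left) and of 20 other endothelial markers (right), with bars of 1 SE and filled circles for genes past the call (p under 0.01, dashed lines at -1 and 1). Flt1 and Plat are open diamonds without an error, since they were chosen on this contrast, and 17 of the 20 other markers lie left of 0.

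ORP4L KI replicate 3 was the highest ORP4L KI library for 15 of the 22 other markers and for 6 of the 7 genes other than Flt1 and Plat, and WT replicate 2 was the highest WT library for 17 and 5 of them. Of 8 stromal markers with enough reads, 6 were highest in replicate 3 and the other 2, Pdgfrb and Acta2, in replicate 1. The stromal sum was carried there by Dcn (440 reads) and Col3a1 (330 reads), genes singled out after their values were seen, and came to 64.6 CPM against 10.2 to 21.8 CPM in the other ORP4L KI libraries and 10.6 to 37.5 CPM in WT. Erythroid markers were also highest there among the ORP4L KI libraries, at 0.851% of reads against 0.117% to 0.339%, and made up 1.08% to 1.85% in WT. Red-pulp macrophage markers, a cell type of the spleen, summed to 152 to 296 CPM in WT and 93.9 to 205 CPM in ORP4L KI, and 2 of 6 were called lower. The 7 dendritic cell markers summed to 487 to 748 CPM in WT and 142 to 263 CPM in ORP4L KI, and 6 were called lower, where 2.3% of all genes were. The part of such cells, or of a spleen or blood source, in the endothelial values was not tested. Without ORP4L KI replicate 3, 2 of the 6 tested genes and 8 of the other markers were called, against 1 and 4 with it. Leaving out the library that was highest for most of these genes lowers their ORP4L KI mean, and the share of all genes called without it is not given. Nothing is therefore read from this gain.

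The ligands and co-receptors of Flt1, Kdr, Tek and Tie1 mostly did not pass the call. Of 11 genes of the VEGF and angiopoietin system listed, 7 were tested, 5 had a log2 fold change below 0, the median was -0.18 and 1 was called (4.68% of all genes were). That gene, Vegfc, a ligand of Flt4 and Kdr, was at 1.74, 3.52 and 1.19 CPM in WT and at 0.243, 0.493, 0.747 and 0.560 CPM in ORP4L KI, with a log2 fold change of -2.06 ± 0.51 (SE, edgeR adjusted p = 0.111). All its ORP4L KI values were below WT, as for 7.38% of all genes. Vegfa, the shared ligand of Flt1 and Kdr, averaged 79.5 ± 20.8 CPM in WT and 70.1 ± 26.3 CPM in ORP4L KI, a log2 fold change of -0.18 ± 0.32 (SE, edgeR adjusted p = 0.874). Nrp1, a co-receptor for VEGF-A that T-cells also carry, had a log2 fold change of 0.40 ± 0.24 (SE, edgeR adjusted p = 0.539).

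In the TGF-beta family, whose signals Eng modulates, 7 of 10 genes were tested, with a median log2 fold change of -0.29 and 1 called (4.68% of all genes were). Acvrl1 (ALK1), the type I receptor that pairs with endoglin in endothelium, rose, while Eng had the negative change given above. Acvrl1 was at 24.5, 33.4 and 21.1 CPM in WT and at 182, 28.9, 74.2 and 108 CPM in ORP4L KI, with a log2 fold change of 1.90 ± 0.53 (SE, edgeR adjusted p = 0.141). ORP4L KI replicate 2 lay within the WT range, and replicate 1, in which granulocyte markers took 12.2% of the reads, was the highest. The part of granulocytes in this rise was not tested. Tgfb1 had a log2 fold change of -0.46 ± 0.23 (SE, edgeR adjusted p = 0.43), and Tgfbr2 averaged 168 CPM in both groups.

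None of the 6 junction partners of Cdh5 was called lower. All were tested, 5 had a log2 fold change below 0, the median was -0.22, and 1 was called (4.68% of all genes were). This was Vcl (vinculin), an actin linker of many cell types, which was at 33.4, 43.2 and 42.4 CPM in WT and at 178, 54.8, 83.1 and 83.5 CPM in ORP4L KI, a log2 fold change of 1.33 ± 0.37 (SE, edgeR adjusted p = 0.144). Ctnna1 (alpha-catenin) was lower in each ORP4L KI library, at 69.0 ± 5.58 against 95.8 ± 10.1 CPM, a log2 fold change of -0.47 ± 0.17 (SE, edgeR adjusted p = 0.251), and Ctnnb1 (beta-catenin) had one of -0.21 ± 0.19 (SE, edgeR adjusted p = 0.712). Neither passed the call. Over all genes 7.38% had every ORP4L KI library below every WT library, as Ctnna1 had.

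In the plasminogen system to which Plat belongs, 10 of 13 genes were tested, 9 of the 10 had a log2 fold change above 0, the median was 0.52, and 2 were called, both higher (2.38% of all genes were called higher). The exception, Lrp1, a clearance receptor for plasminogen activators, was named after its value was seen. It was at 78.5, 158 and 132 CPM in WT and at 79.2, 58.0, 55.2 and 59.1 CPM in ORP4L KI, a log2 fold change of -0.96 ± 0.26 (SE, edgeR adjusted p = 0.129) that was just under the size the call asks for. The 2 called genes encode inhibitors of plasminogen activators. Serpine2 (protease nexin-1) was at 3.85, 2.58 and 2.32 CPM in WT and at 14.9, 3.94, 5.11 and 12.6 CPM in ORP4L KI, with a log2 fold change of 1.64 ± 0.50 (SE, edgeR adjusted p = 0.174). Serpinb2 (PAI-2) was at 3.04, 3.90 and 2.46 CPM in WT and at 8.89, 4.60, 6.15 and 8.71 CPM in ORP4L KI, with a log2 fold change of 1.17 ± 0.33 (SE, edgeR adjusted p = 0.147). For both all ORP4L KI libraries were above all WT libraries. Plaur, the receptor of urokinase, had a log2 fold change of 1.29 ± 0.53 (SE, edgeR adjusted p = 0.322), and Anxa2, a surface partner of tissue plasminogen activator, one of 0.40 ± 0.42 (SE, edgeR adjusted p = 0.774). Of 11 genes of this list with enough reads, 8 were highest in ORP4L KI replicate 1 and 0 in replicate 4, whereas Plat was lowest in replicate 1 and highest in replicate 4. Granulocyte markers were highest in replicate 1 as well, at 12.2% of reads against 1.12%, 3.06% and 4.91% in replicates 2 to 4, and their part in these rises was not tested. Over the 13462 genes, 6.43% had all ORP4L KI libraries above all WT libraries.

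**Figure D4:**
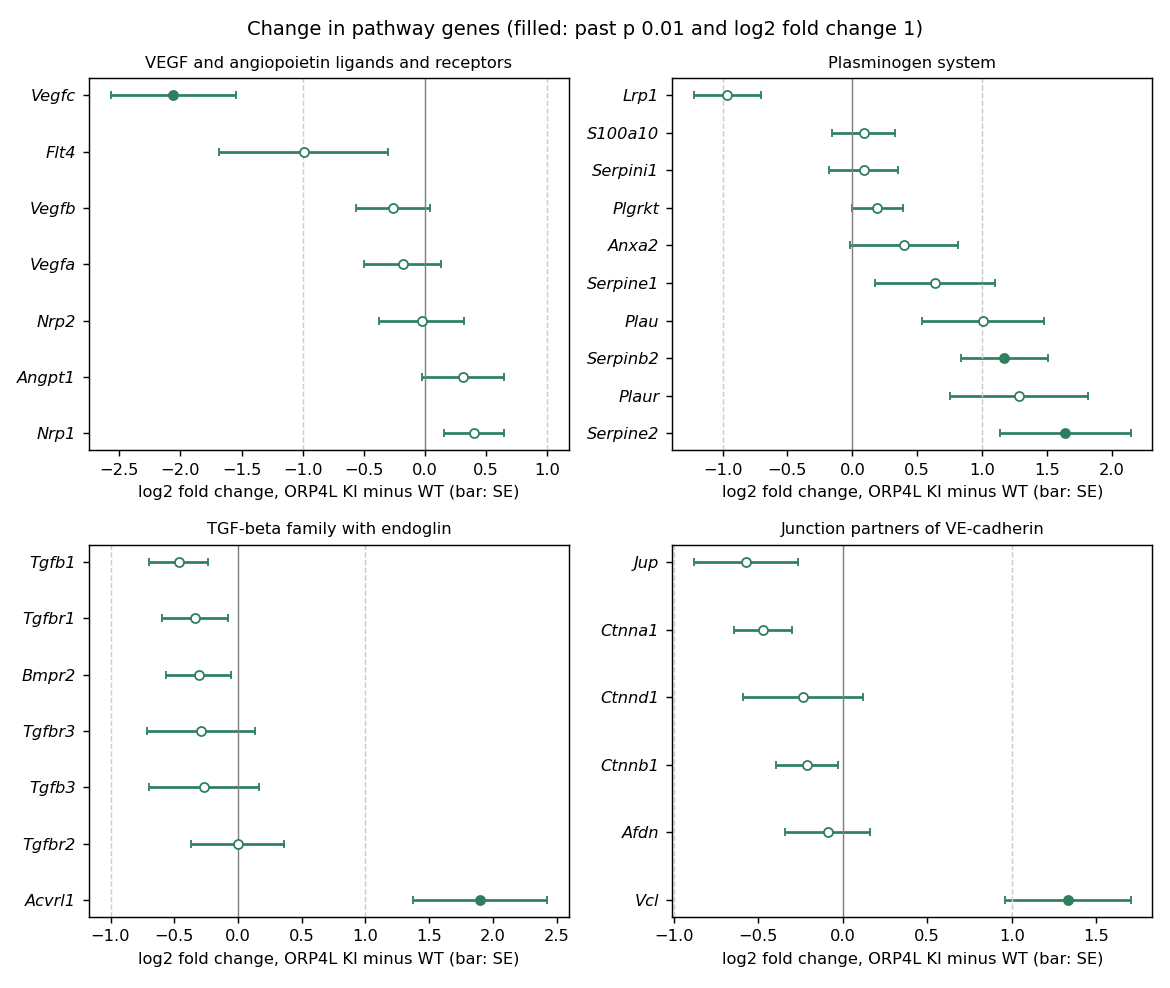
Log2 fold change, ORP4L KI minus WT, of the tested genes of 4 lists around the endothelial genes, with bars of 1 SE (3 WT and 4 ORP4L KI libraries) and filled circles for genes called. The called genes are Vegfc on the lower side and Serpine2, Serpinb2, Acvrl1 and Vcl on the higher side.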

How the data were processed

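RNA was sequenced from T-cells of 4 ORP4L KI and 3 WT mice, grouped and numbered by the sample labels. The authors discarded reads under 17 nt after adapter trimming, mapped the rest to a mouse mRNA reference using FANSe3, added up the transcripts of a gene, and deposited whole-number read counts without normalization, beside an RPKM that they computed per gene from its longest transcript. The submitters' notes name mm10. RPKM values were used only to order genes by level. The depth was 12918187 to 19665679 counts per library.

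Tests on the counts were run in R 4.3.3 (edgeR 4.0.16, filterByExpr, TMM, quasi-likelihood test, no covariates) over 13462 genes. The SE is the log2 fold change over the square root of F, and p-values measure the spread between these mice. The members and lists were chosen with earlier results of these data known. Named genes were the 9 members and, in each list, every called gene and the 2 most abundant, with the 5 genes most correlated with Flt1 and with Plat. On simulated counts, 199 of 200 genes changed by a log2 fold change of 2 were called (13282 genes, 74 false calls). The changed genes were drawn only from genes with higher mean counts. The share called therefore does not describe genes with few reads or smaller changes. Alternatives were DESeq2 1.42.0 (size factors, Wald test), upper-quartile and total-count scaling, other filters, 2 other edgeR tests (exact, likelihood ratio), a block for the replicate number and each library left out. Figures were drawn with Matplotlib 3.10.9. Set tests were not run.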

Additional observations from a re-analysis of the deposited data

Results flagged for a closer look

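In groups of 4 libraries, a library was singled out where its gap to the nearest other exceeded Dixon's critical value at 95%. The 28 ORP4L KI groups of the named genes other than Flt1 and Plat, with 1 sum, were examined, chance gives about 1 in 20 (1.4 here), and 4 were singled out. In ORP4L KI replicate 3, Kdr was at 7.29 CPM against 1.28 to 2.08 CPM in the other 3 libraries and Emcn at 2.70 CPM against 0.0548 to 0.243 CPM. Tgfb1 stood apart in ORP4L KI replicate 4, at 277 CPM against 193 to 208 CPM, and Ctnnb1 in ORP4L KI replicate 1, at 129.8 CPM against 95.2 to 98.8 CPM. The causes were not tested.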

How the results depend on the processing

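The log2 fold changes of Flt1 (-1.43 to -0.96 with a library left out) and Plat (1.26 to 2.0) kept their direction in all 34 values recomputed under the alternatives. Counts of values here include the refit with a prior count of 2, in which p could not change. Of 434 such values for 26 other named genes, Osbp2 included, 372 kept their direction and side of the call, 50 were no longer called, 2 became called and 10 turned direction. The turned ones were Tek without WT replicate 2 (0.25) or ORP4L KI replicate 2 (0.036), Tie1 without the same libraries (0.13 and 0.031), Vegfa without WT replicate 2 (0.021), Anxa2 without ORP4L KI replicate 1 (-0.052), and Tgfbr2 with DESeq2's size factors (0.0073) or Wald test (0.0073) or without WT replicate 3 (0.33) or ORP4L KI replicate 1 (0.22). Their other extremes with 1 library left out were -1.02 for Tek, -0.61 for Tie1, -0.36 for Vegfa, -0.26 for Tgfbr2 and 0.74 for Anxa2. With 1 library left out at a time, the number called was 0 to 2 of the 6 tested endothelial genes, 0 to 8 of the other endothelial markers, 0 to 1 in each of the VEGF, TGF-beta and junction lists, and 0 to 4 in the plasminogen list. The endothelial gene was lost without WT replicate 1 or 2 or ORP4L KI replicate 1, 2 or 4. Vegfc was lost without WT replicate 2, Acvrl1 without WT replicate 1 or 3 or ORP4L KI replicate 4, and Vcl without any 1 WT library or ORP4L KI replicate 1. The plasminogen list had 0 without WT replicate 3 or ORP4L KI replicate 4 and 4 without ORP4L KI replicate 2, and the other endothelial markers had 0 without WT replicate 1 and 8 without ORP4L KI replicate 3. At an adjusted p under 0.05 the quasi-likelihood test called 0 in each of these lists, while DESeq2's Wald test and edgeR's exact and likelihood ratio tests each called 1 endothelial gene (Cdh5), 1 gene in each of the VEGF, TGF-beta and junction lists, 3 in the plasminogen list (Serpine2 and Serpinb2 higher, Lrp1 lower) and 2, 3 and 4 of the other endothelial markers. At the thresholds of the report the same tests called 6, 5 and 5 of the other endothelial markers. For alternatives to the main fit, the share of all genes called at these thresholds is not given. Nothing is therefore read from a gain or loss of calls under them. The labels do not say whether the replicate numbers pair the mice. Deviations of same-numbered libraries correlated at 0.14, -0.52 and -0.0097, and those of other pairs at -0.38 to 0.50. With so few libraries these values cannot decide whether the mice were paired. With the number as a block, without ORP4L KI replicate 4, 0 endothelial genes, 1 other marker and 0 genes of each other list were called, Flt1 was at -1.10 and Plat at 1.17. A filter of 10 counts in every library left 0 genes called in the VEGF list, because Vegfc was removed by it. An alternative chosen after seeing the data left out ORP4L KI replicates 1 and 3, those with the most granulocyte and the most endothelial and stromal reads. It called 3 of the endothelial genes, 7 of the other markers and 0 in each other list, with Tgfbr2 at 0.32 and Anxa2 at -0.079. The share of all genes called in this fit is likewise not given. The summed level of the 7 genes, a log2 ratio of -0.64 (-0.77 to -0.54 with a library left out, added after seeing the data), was -0.93 without Pecam1 and -1.05 without Pecam1 and Eng. Scaling by total counts alone moved the median change over all genes (log2) from 0.013 to -0.13. Apart from these constructions the causes were not tested. The correlations with Flt1 and Plat, recomputed after seeing the data, moved by under 0.2 in 42 of 42 values under other scalings and by more in 22 of 98 with a library left out. Depth limits genes with few reads, such as Emcn, Tek, Lyve1 and Nos3, each with under 50 reads in every library.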
